A study of Mus musculus with 2 samples.

Results

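Gli2, Tenm4, Klf12, Trps1, Auts2, Rora, Nav2, Immp2l, Wwox and Rad51b are 10 very long protein-coding genes among the 32285 genes listed in the counts. They were chosen by symbol from a list drawn up with earlier results of these counts in view. Their level, and how it varies with Malat1 and with mitochondrial transcripts, are therefore given as descriptions with no test. All 10 were found in the feature table, and all 10 passed a filter of a mean of at least 10 CPM (a gene's counts scaled to a fixed library total), which 8129 genes passed. The counts do not separate exonic from intronic reads, so how much of each gene's signal came from introns was not measured.

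The cells were E14 mouse embryonic stem cells, an established line of 129/Ola background, grown on gelatin in serum with leukaemia inhibitory factor. Both groups were transfected with small interfering RNA (siRNA) by Lipofectamine 2000. The control group received control siRNA, and the sonKD group received siRNA against Son, which encodes an RNA-binding protein of nuclear speckles. Cells of both groups were taken a day after transfection, frozen, thawed, sorted for exclusion of the dye 7-AAD and processed with 10x Genomics 3' v3 chemistry. Each group held 1 library, so no difference below has a replicate check, and the effect of the siRNA and a difference between libraries cannot be told apart.

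The deposited matrices list all barcodes, empty droplets included, with raw counts of unique molecular identifiers (UMIs, each marking 1 captured molecule). The control library held 71046373 UMIs over 1408944 barcodes and the sonKD library 60352438 UMIs over 1400093 barcodes. Barcodes were placed in 3 classes by their total UMIs, here called low (100 to 500), middle (700 to under 2500) and deep (at least 2500). The low class held 59886 control and 62449 sonKD barcodes, the middle class 5052 and 2373, and the deep class 5604 and 3789. The libraries shared 1075 barcode sequences in the low class, 2 in the middle class and 5 in the deep class. In the deep class all 12 stem cell markers listed were at 10 CPM or more in both libraries, and all 8 fibroblast and feeder markers were under 10 CPM, with Col3a1, Lum and Postn at 0 UMIs in both. Son itself stood at 174.7 CPM in control (95% interval 170.8 to 178.7) and 114.1 CPM in sonKD (110.6 to 117.6) in the deep class, a log2 ratio of -0.61 (-0.67 to -0.56), so the libraries went with their labels. Intervals throughout are at 95% and cover counting error only.

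As background, a gene of this kind consists almost wholly of intron, and a polymerase needs hours to cross it, so a cell holds many unfinished copies of its transcript in the nucleus. The chemistry used here primes from runs of A, and such runs occur inside introns as well as at the tail of a finished messenger RNA. Malat1 is a long noncoding RNA kept in nuclear speckles, and the genes prefixed mt- are transcribed inside mitochondria. A damaged cell can lose cytoplasmic messenger RNA while it keeps its nucleus and its mitochondria, and droplets with few UMIs mostly hold RNA that was free in the suspension.

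The genes lie on 8 chromosomes in GENCODE M21 on GRCm38. Gli2 is at chr1:118834132-119053619 on the minus strand, Klf12 at chr14:99870632-100284679 (minus), Trps1 at chr15:50654752-50890463 (minus), Rora at chr9:68653786-69388246 (plus) and Auts2 at chr5:131437333-132543344 (minus). Tenm4 is at chr7:96171246-96911093 and Nav2 at chr7:48908716-49610090, both on the plus strand. Immp2l is at chr12:41024090-41955588, Rad51b at chr12:79297282-79814690 and Wwox at chr8:114439655-115352708, also on the plus strand. Their spans ran from 219 kb (Gli2) over a median of 718 kb to 1106 kb (Auts2), against a median of 12.3 kb over all listed genes in the annotation. Only 596 genes, or 1.85%, spanned at least 300 kb, and 8 of the 10 genes were among them, with Gli2 and Trps1 (236 kb) below that mark. Introns made up 94.3% (Trps1) to 99.8% (Immp2l) of the span, with a median of 98.1% against 79.0% over all genes. Of Immp2l's 931 kb only 1.83 kb are exonic.

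Because capture starts at runs of A, the annotated transcripts of the 10 genes were searched on the sense strand for stretches of 18 bases with at least 15 A, leaving out the last 50 bases. Such a stretch occurred in 6 of the 10, against 29.8% of the 8129 genes, and in no transcript of Gli2, Klf12, Immp2l or Rad51b. These 4 have the least exonic sequence of the 10, from 1.832 kb (Immp2l) to 6.985 kb (Klf12). The 6 with a stretch have 10.2 kb (Wwox) to 32.2 kb (Nav2). The comparison with all genes was not matched for length, so it does not show that these genes are rich in such stretches. The introns themselves were not searched. The sequences show the longest run of A, in capitals, for the pair with the shortest runs and the pair with the longest, each as 30 bases of the named transcript, 5' to 3'. The Gli2 run has 5 A and the Rad51b run has 5 A, both in protein-coding transcripts. The Auts2 run has 14 A in a processed transcript, and the Nav2 run has 12 A in a transcript annotated as a retained intron.
Gli2: cccgacccagggAAAAAggcctgtcctctg
Rad51b: accaggttgcggAAAAActcagttttgcat
Auts2: tcccctggAAAAAAAAAAAAAAggacagac
Nav2: ccttgtctcAAAAAAAAAAAAtccaaaacc
In deep control barcodes these 4 genes had levels of 62.5 (Gli2), 39.1 (Rad51b), 8.68 (Auts2) and 7.90 (Nav2) CPM per 100 kb of span. Trps1, with a longest run of 10 A, had 73.9. Whether the runs bear on the level was not tested.

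Annotated neighbours can share reads with some of these genes. Nav2 overlaps Gm2788 and Gm32849 on its own strand. On the opposite strand Immp2l holds or touches 7 genes, among them the protein-coding Lrrn3, Tenm4 6, Auts2 3, Wwox 3, Nav2 2, and Klf12 and Rora 1 each. Whether counting used the strand is not given in the sources used here, so for these 7 genes reads of the antisense neighbour cannot be told apart. Overlaps were searched only among the 32235 listed genes found in the annotation, so other annotated genes are not covered. Among the genes searched, Gli2, Trps1 and Rad51b overlap no other.

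The 10 genes together took 1544 CPM of all UMIs (1532 to 1556) in the deep control barcodes, from 66211 UMIs, and 1369 CPM (1357 to 1381) in the deep sonKD barcodes, from 48844 UMIs. Each gene was counted in both libraries in all 3 classes. In these barcode sums, fewer cells with a transcript and fewer transcripts per cell cannot be told apart.

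Among the transcriptional regulators, Klf12, a Krüppel-like zinc finger repressor, had 229 CPM of all UMIs in deep control barcodes and 184 in sonKD. Trps1, a GATA-type zinc finger repressor, had 174 and 154 CPM. Gli2, a zinc finger transcription factor that carries the Hedgehog signal to its target genes, had 137 and 113 CPM. Auts2, a nuclear protein found with a variant Polycomb complex, had 96.0 and 79.1 CPM, and Rora, a nuclear receptor, had 51.7 and 55.7 CPM. Rora was the only one of the 5 with the higher value in sonKD. Tenm4, a teneurin of the cell surface that takes part in adhesion, had the most UMIs of the 10, at 258 and 217 CPM. Nav2, a neuron navigator protein that acts on the cytoskeleton, had 55.4 and 51.0 CPM. Among the enzymes and repair proteins, Wwox, an oxidoreductase encoded at a common fragile site, had 202 and 198 CPM. Rad51b, a protein of homologous recombination, had 202 and 184 CPM, and Immp2l, a subunit of the protease of the inner mitochondrial membrane, had 137 and 134 CPM.

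Per 100 kb of gene span, the order in deep control barcodes was Trps1 (73.9 CPM of all UMIs), Gli2 (62.5), Klf12 (55.3), Rad51b (39.1), Tenm4 (34.9), Wwox (22.2), Immp2l (14.7), Auts2 (8.68), Nav2 (7.90) and Rora (7.04). The counting intervals of neighbours in that order did not overlap in control. In sonKD the first 7 kept their places, and Rora (7.59), Nav2 (7.26) and Auts2 (7.16) had overlapping intervals. The 3 shortest genes were thus the highest per unit of span, a scale whose divisor itself favours short genes. Before that division Trps1, Gli2 and Klf12 had 174, 137 and 229 CPM in deep control barcodes, and Tenm4 led at 258. Per kb of exon the order differed: Immp2l led with 74.9 CPM in control and 73.0 in sonKD, followed by Rad51b at 53.9 and 48.9, and Nav2 was last at 1.72 and 1.58.

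**Figure D1:**
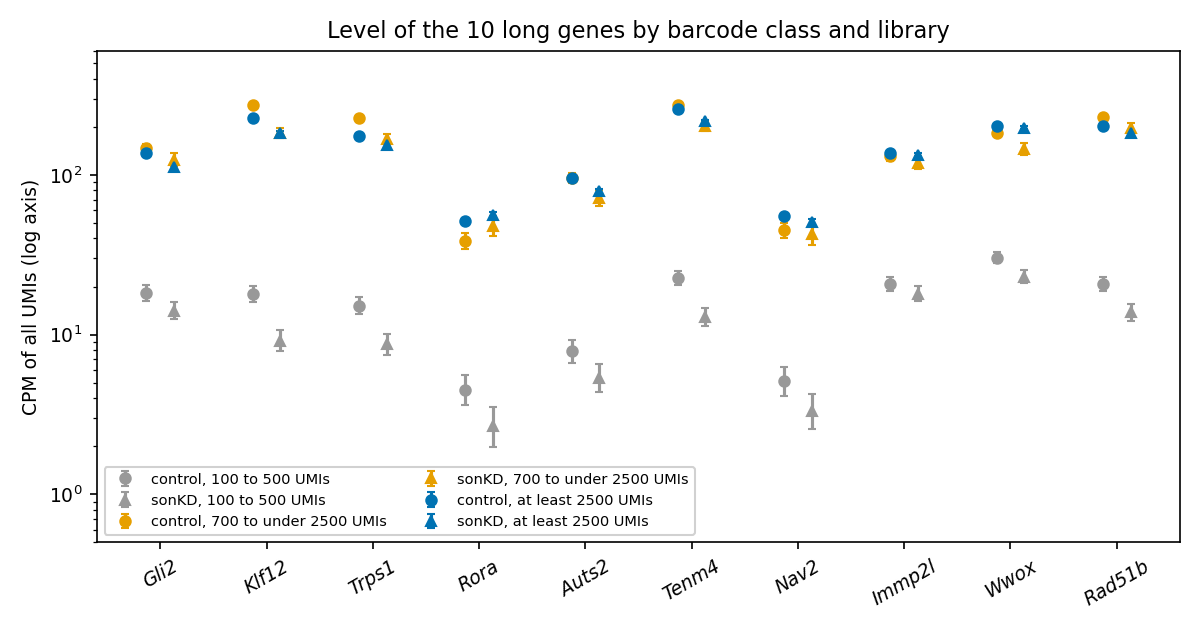
Level of each of the 10 genes in CPM of all UMIs (log axis) by barcode class (colour) and library (circles control, triangles sonKD), with bars for exact Poisson 95% intervals. For each gene the low-class points (grey) lie well under both other classes, and the middle and deep points lie close together.

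The low class was the one in which the genes nearly dropped out. Summed, they had 163.5 CPM of all UMIs (157.7 to 169.5) in control, from 3003 UMIs, and 111.3 CPM (106.5 to 116.2) in sonKD, from 2075 UMIs. Wwox had the most UMIs in that class, at 30.4 CPM of all UMIs in control and 23.1 in sonKD, and Rora the fewest, at 4.52 and 2.68. The classes differ in composition, so they were compared in CPM of the UMIs that remain without mt- genes and Malat1, here called remaining CPM. On that scale the 10 genes together were at 165.4 in low and 1619 in deep control barcodes, a log2 ratio of -3.29 (-3.34 to -3.24), or 0.102 of the deep level. In sonKD they were at 112.5 and 1454, a log2 ratio of -3.69 (-3.76 to -3.63), or 0.0773 of the deep level. All 10 were lower by more than 1.5-fold in both libraries, against 63.8% of 8115 genes in control and 67.2% in sonKD (higher: 4.36% and 3.24%), so that count alone says little about them.

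The drop was also described by its size. The 10 genes were chosen with earlier results of these counts in view, so their rank among all genes is a description only. The median log2 ratio was -3.53 over the 10 genes and -1.0 over all genes in control, and -3.98 and -1.14 in sonKD. All 10 genes lay below the 5th percentile of all genes in control, which was -2.77, and 8 of 10 lay below that of sonKD, -3.17. Klf12 had -3.72 in control and Immp2l, with the smallest drop, -2.78. In sonKD the range ran from -4.45 (Rora) to -2.96 (Immp2l). Malat1 was lower in the low class by less, at -1.36 and -1.57.

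The drop followed gene span across the transcriptome. Genes under 10 kb had a median log2 ratio of -0.04 in control and those of 10 to 30 kb -0.69, those of 30 to 100 kb -1.50, and those of 100 to 300 kb -2.30. The 183 other genes of at least 300 kb had -2.81. The same 5 medians in sonKD were -0.14, -0.81, -1.69, -2.59 and -3.21. Of those 183 other genes, 97.8% were lower by more than 1.5-fold in each library, so the 10 genes shared their direction with nearly all very long genes. The 18 other very long genes of a fixed list that reached 10 CPM had a median of -2.84 in control and -2.98 in sonKD, whereas 20 abundant cytoplasmic messenger RNAs, such as Gapdh and Actb, had -0.28 and -0.21.

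The middle class was close to the deep class in these genes. Summed remaining CPM was 2000 in middle and 1619 in deep control barcodes, a log2 ratio of 0.30 (0.28 to 0.33), and 1648 and 1454 in sonKD, a log2 ratio of 0.18 (0.14 to 0.22). In control 1 of 10 was higher by more than 1.5-fold, Trps1 at 0.59, against 23.4% of genes, and none was lower, against 4.93%. In sonKD none was past 1.5-fold in either direction, against 26.4% higher and 5.56% lower. The median of all genes was 0.24 and 0.23, and that of the 10 genes 0.26 and 0.12. Other very long genes had higher medians than the 10. The 183 other genes of at least 300 kb had 0.40 and 0.38, with 27.3% and 28.4% of them higher by more than 1.5-fold. The 18 other very long genes of a fixed list had 0.42 and 0.36. Malat1 was 3.29-fold higher in the middle class in control and 2.76-fold in sonKD. The middle class held 16.8% mt- UMIs in control and 20.2% in sonKD, against 4.34% and 5.60% in the deep class. In CPM of all UMIs, where the mt- UMIs count in the total, the log2 ratio was 0.093 in control and turned to -0.070 in sonKD.

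**Figure D2:**
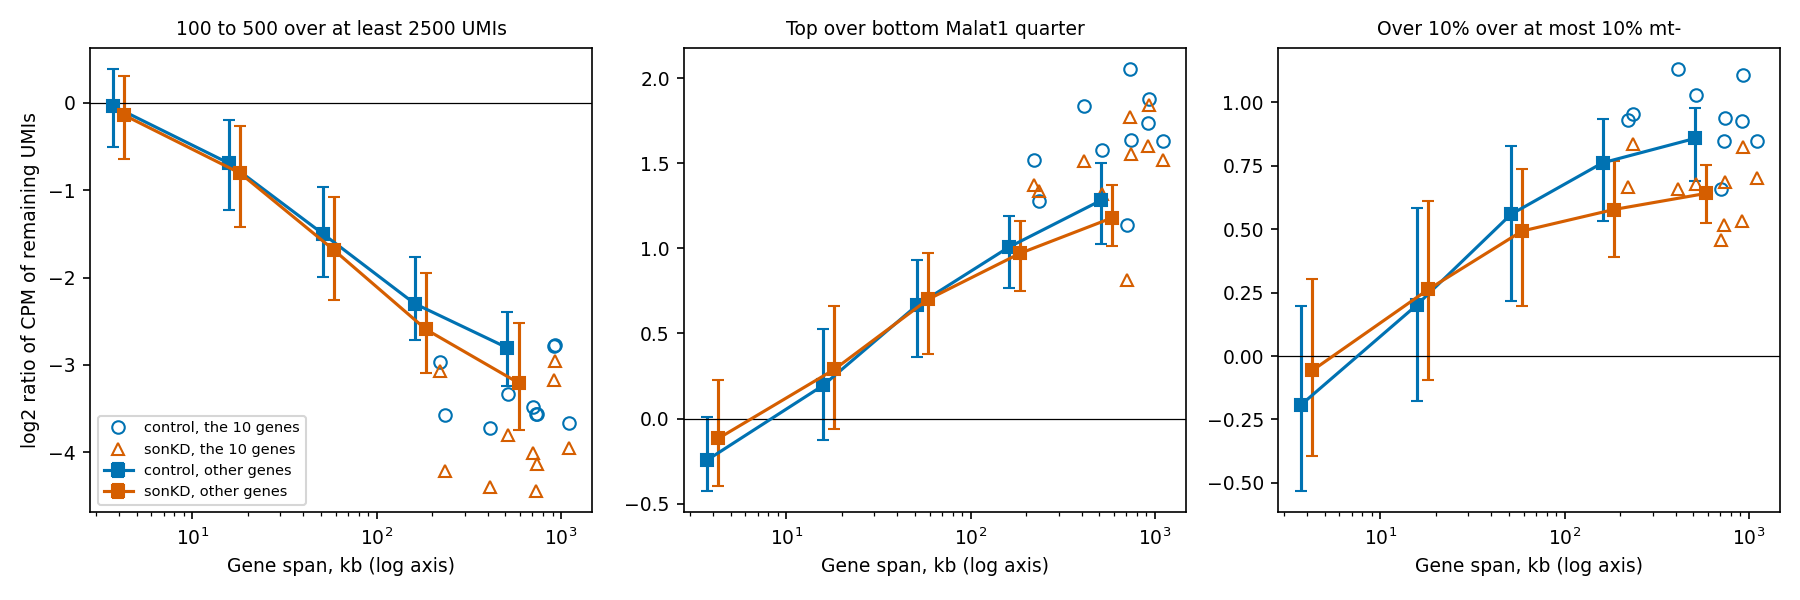
Log2 ratio of remaining CPM against gene span (kb, log axis) for low over deep barcodes, for the 25% of deep barcodes with the highest Malat1 share over the 25% with the lowest, and for deep barcodes over against at most 10% mt- UMIs. Open symbols are the 10 genes, and squares with bars are the median and the 25th to 75th percentiles of all other genes in 5 span bins. The medians run from -0.04 to -2.81 in the first panel for control and rise with span in the other panels.

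Within the deep class the level of the 10 genes went with Malat1. Barcodes were ranked by the share of Malat1 in their UMIs without mt- genes and divided into 4 equal ranges, which are ranges of a continuous share and not cell types. From the lowest to the highest range, the summed remaining CPM was 862, 1298, 1883 and 2681 in control and 900, 1315, 1757 and 2528 in sonKD. Malat1 itself ran over the same ranges from 680 to 8783 CPM of non-mt UMIs in control and from 661 to 11702 in sonKD. The level of the genes was thus higher in each step of Malat1 in both libraries. Within 10% of the upper border lay 355 of 5604 control barcodes and 174 of 3789 sonKD barcodes.

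Between the highest and the lowest range the 10 genes together differed by a log2 ratio of 1.64 (1.60 to 1.67), or 3.11-fold, in control and 1.49 (1.45 to 1.53), or 2.81-fold, in sonKD. All 10 were higher by more than 1.5-fold in both, against 38.6% of genes in control and 43.5% in sonKD, and none was lower (1.85% and 3.34% of genes). The median of all genes was 0.39 and 0.48, and 8 of the 10 lay above the 95th percentile of all genes in each library (1.29 and 1.32). Rora had the largest log2 ratio in control, 2.05 (1.85 to 2.26), followed by Immp2l at 1.88 and Klf12 at 1.84. Nav2 had the smallest, 1.14 (0.96 to 1.32). In sonKD Immp2l led with 1.84 (1.71 to 1.97) ahead of Rora at 1.77 (1.56 to 1.98), with overlapping intervals, and Nav2 was again last at 0.82 (0.60 to 1.03). Other genes of at least 300 kb had medians of 1.28 and 1.18, and 96.2% of them were past 1.5-fold in each library, while genes under 10 kb had -0.24 and -0.12.

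The ranges also differed in depth and in mt- share. The median UMIs per barcode was 7255 in the lowest and 5417 in the highest range in control, and 10980 and 3311 in sonKD. Barcodes over 10% mt- UMIs made up 0.714% of the lowest and 39.1% of the highest range in control, and 4.32% and 76.5% in sonKD. Among barcodes with at most 10% mt- UMIs the log2 ratio was 1.53 in control and 1.22 in sonKD, and among barcodes of at least 5000 UMIs it was 1.49 and 1.22. Among those of 2500 to under 5000 UMIs it was 2.53 and 1.65.

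In the middle class the contrast was wider. The summed remaining CPM was 611 in the lowest and 3450 in the highest Malat1 range in control, a log2 ratio of 2.50 (2.39 to 2.61), and 383 and 2925 in sonKD, a log2 ratio of 2.93 (2.74 to 3.13). All 10 were again past 1.5-fold in both, against 33.1% and 40.6% of genes higher and 10.2% and 11.0% lower. Immp2l had the largest value in control, 3.29 (2.85 to 3.78), and Klf12 in sonKD, 3.84 (3.18 to 4.59). Auts2 in control, 1.39 (1.04 to 1.75), and Nav2 in sonKD, 1.15 (0.39 to 1.98), had the smallest. Here the other genes of at least 300 kb had medians of 1.37 and 1.54. The share of barcodes over 10% mt- UMIs differed less between these ranges, at 79.4% and 90.7% in control and 81.1% and 82.5% in sonKD. Depth differed too, here with the deeper barcodes in the highest range. The median UMIs per barcode was 1196 in the lowest and 1706 in the highest range in control, and 1323.5 and 1885 in sonKD. The part of depth in this contrast was not tested.

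In the low class almost nothing could be compared within barcodes. After thinning to 100 UMIs, only 28 control and 23 sonKD barcodes held 3 or more Malat1 UMIs, and these held 7 and 9 UMIs of the 10 genes. Their summed level was above that of barcodes with 0 Malat1 UMIs by a log2 ratio of 2.37 (1.06 to 3.42) and 3.39 (2.25 to 4.31). These few droplets say nothing about the rest of the class.

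Across single barcodes the relation was looser. With each barcode thinned to the lower border of its class, Spearman's rho between the summed 10 genes and Malat1 was 0.48 over 5604 deep control barcodes and 0.41 over 3789 deep sonKD barcodes. For middle barcodes it was 0.45 and 0.47, at means of 1.05 and 0.84 UMIs of the 10 genes per thinned barcode. In the low class, with means of 0.0162 and 0.0112 UMIs, it was 0.0043 and 0.0093. In the deep class the single genes ranged from 0.08 (Nav2) to 0.30 (Klf12) in control and from 0.06 (Nav2) to 0.23 (Wwox) in sonKD. The 18 other very long genes, summed, had 0.21 and 0.15 with Malat1, and the 20 cytoplasmic messenger RNAs -0.49 and -0.55. The sum of the 18 mostly reflects 1 gene. Pde4d alone had 1734 CPM in deep control barcodes, where all 37 genes of that list had 3160. Taken singly between the highest and lowest Malat1 ranges, 17 of the 18 in control and 16 in sonKD were higher by more than 1.5-fold. Over all genes 38.6% and 43.5% were. The 18 genes had median log2 ratios of 1.22 in control and 1.12 in sonKD, against 0.39 and 0.48 over all genes. With mt- UMIs, rho of the summed 10 genes was 0.24 in control and 0.17 in sonKD in the deep class and -0.10 and -0.18 in the middle class, so its sign differed between these classes in both libraries. In the low class it was -0.0021 and 0.0026. Barcodes of 1 library share their preparation, and the UMIs of a thinned barcode add up to a fixed total, so these values are descriptions.

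The genes also moved with one another, each weakly. In deep barcodes the rho of a gene with the sum of the other 9 ran from 0.12 (Nav2) to 0.29 (Tenm4) in control and from 0.11 (Nav2) to 0.26 (Tenm4) in sonKD. With means of 0.13 to 0.64 UMIs per gene and thinned control barcode, such values are too sparse to separate the genes into groups.

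In deep barcodes with a high share of mt- UMIs, the 10 genes took a larger share of the remaining UMIs in both libraries. In control, the 626 barcodes over 10% mt- UMIs had a summed remaining CPM of 3068, against 1558 in the others, a log2 ratio of 0.98 (0.94 to 1.02), or 1.97-fold. In sonKD, 1058 such barcodes had 2206 against 1382, a log2 ratio of 0.68 (0.64 to 0.71), or 1.60-fold. The sides differed in depth as well, with median UMIs per barcode of 2974 at over 10 to 25% mt- against 8002 at 0 to 5% in control and 3174 against 12166 in sonKD. Among barcodes of 2500 to under 5000 UMIs the log2 ratio was 1.25 in control and 0.43 in sonKD, the latter under 1.5-fold. All 10 were past 1.5-fold in control, against 35.7% of genes higher and 7.32% lower. In sonKD 7 of 10 were, against 31.6% higher and 4.45% lower, and the 3 others were Wwox at 0.53, Rora at 0.52 and Nav2 at 0.46. The largest values were 1.13 (Klf12) in control and 0.83 (Trps1) in sonKD. None of the 10 lay above the 95th percentile of all genes in either library. Among the 183 other genes of at least 300 kb, 88.0% were past 1.5-fold in control and 59.6% in sonKD. Malat1 differed by more, at 5.72-fold and 4.81-fold.

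Fixed lists of other genes differed in the same contrast. Over all genes, 35.7% in control and 31.6% in sonKD were higher by more than 1.5-fold, and 7.32% and 4.45% were lower. All 11 nuclear long noncoding RNAs measured without Malat1, Neat1 among them at 1.61, were higher by more than 1.5-fold in control, and 10 of 11 in sonKD, with medians of 1.25 and 0.94. Of 20 abundant cytoplasmic messenger RNAs, 12 in control and 8 in sonKD were lower by that margin, with medians of -0.70 and -0.52. Gapdh, a glycolytic enzyme, had -0.90 and -0.68. The 18 other very long genes had medians of 0.88 and 0.54, and 16 and 6 of them were past 1.5-fold. The sonKD count was near the share over all genes. Pde4d, a cAMP phosphodiesterase of the same list, went the other way, at -0.34 and -0.41.

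**Figure D3:**
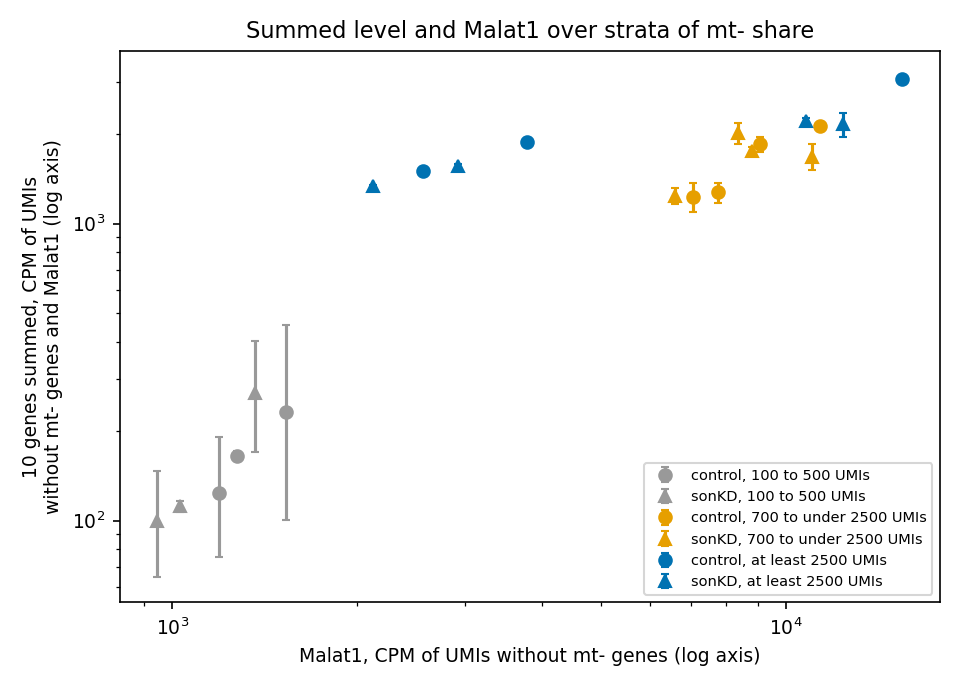
Summed remaining CPM of the 10 genes against Malat1 in CPM of UMIs without mt- genes (both log axes), 1 point for each of 21 strata of library, class and mt- share with at least 50 barcodes, with exact Poisson 95% intervals. The low-class strata sit at the lower left, and the highest point is the deep control stratum of over 10 to 25% mt- UMIs, at 3061.

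By stratum, deep control barcodes had a summed remaining CPM of 1502 at 0 to 5% mt- UMIs, 1887 at over 5 to 10% and 3061 at over 10 to 25%. Deep sonKD barcodes had 1336, 1559 and 2210 in the same strata and 2158 (1966 to 2365) at over 25 to 50%. The middle class did not follow that course. There control had 1228, 1851, 2139 and 1274 over the 4 strata, highest at over 10 to 25%, and sonKD had 1676, 2015, 1757 and 1239, highest at over 5 to 10%. In both libraries the middle-class barcodes with over 25 to 50% mt- UMIs were lower than those with over 5 to 25%. Malat1 had its lowest middle-class value there in sonKD, at 6593 CPM of non-mt UMIs, and its second lowest in control, at 7761.

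Divided at 10% mt- UMIs, the middle class therefore gave opposite signs, with a log2 ratio of 0.30 (0.22 to 0.37) in control and -0.22 (-0.32 to -0.12) in sonKD. None of the 10 was past 1.5-fold in either library, against 8.47% of genes higher and 1.37% lower in control and 8.39% and 4.23% in sonKD. The median log2 ratio over the 10 genes was 0.34 in control and -0.11 in sonKD, against 0.10 and 0.03 over all genes. The 183 other genes of at least 300 kb had medians of 0.33 and 0.015, so they too were lower in sonKD. In control Immp2l had the largest value, 0.57 (0.27 to 0.88), and only Gli2 was below 0, at -0.12 (-0.35 to 0.12). In sonKD Klf12 had -0.56 (-0.81 to -0.30) and Wwox -0.43 (-0.72 to -0.14). With a limit of 20% the control value also was below 0, at -0.30, and the sonKD value was -0.36. Across middle barcodes the rank correlation with mt- UMIs given above was likewise below 0 in both libraries. With a limit of 5% the values were 0.73 and -0.027, the latter near 0 and without an interval, so its sign is not shown. Opposite signs were thus seen at 10% and not at 20% or across barcodes. In the low class only 10 and 23 UMIs of the 10 genes fell in barcodes over 10% mt- UMIs, with log2 ratios of 0.55 (-0.51 to 1.43) and 1.19 (0.53 to 1.78).

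Malat1 and mt- share were then crossed, with barcodes above the class median of Malat1 share set apart from those at or below it. In deep control barcodes with at most 10% mt- UMIs, the summed remaining CPM was 2143 above the median and 1081 at or below it. Over 10% mt- UMIs it was 3155 above the median, from 600 barcodes, and 1329 (1087 to 1609) at or below it, from 26. In sonKD the values at most 10% mt- were 1883 and 1116, and over 10% they were 2413, from 938 barcodes, and 825 (737 to 921), from 120. Above the Malat1 median the barcodes over 10% mt- thus had the higher value in both libraries. They were also shallower, with median UMIs of 2973.5 against 8145 in control and 3125.5 against 11673 in sonKD. A division at the median does not match Malat1 between the sides, and the parts of depth and Malat1 were not tested. At or below the Malat1 median the intervals overlapped in control (1067 to 1095 at most 10% mt-), and in sonKD the barcodes over 10% mt- had the lower value. The Malat1 step was the larger one in the middle class of both libraries: 2832 against 1054 over 10% mt- and 2747 against 869 at most 10% in control, and 2281 against 742 and 2894 against 761 in sonKD.

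Over the 21 strata, the genes whose log2 CPM followed the summed 10 genes most closely were Phf20 (Pearson's r 0.986), Ranbp17 (0.985), Etl4 (0.984), Pola1 (0.984) and Nsd1 (0.983). Their spans are 113, 302, 901, 327 and 109 kb. Malat1 had an r of 0.883, below the 95th percentile of 0.904 over the 8106 genes compared. High values were common, with 434 of these genes over 0.9. Among the 10 genes, Tenm4 came closest to the sum, which contains it, at 0.985, and Rora and Nav2 were farthest from it, at 0.771 and 0.772. The 50 closest genes had a median span of 168 kb against 27.0 kb over the genes compared, and 12 of them (24%) spanned at least 300 kb, against 2.26%. The strata share libraries and differ widely in depth, so r describes these counts only.

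Between libraries the deep-class difference was small. The summed level of the 10 genes in CPM of all UMIs was 1369 in sonKD and 1544 in control, a log2 ratio of -0.17 (-0.19 to -0.16), against a median of -0.11 over all genes. None of the 10 was past 1.5-fold, against 1.28% of genes lower and 0.96% higher. Klf12 at -0.31 (-0.36 to -0.27), Gli2 at -0.29 (-0.34 to -0.23), Auts2 at -0.28 (-0.35 to -0.21) and Tenm4 at -0.25 (-0.30 to -0.21) were the lowest. Trps1 had -0.18, Rad51b -0.14 and Nav2 -0.12. Rora was the only gene above 0, at 0.11 (0.02 to 0.20). Immp2l at -0.04 (-0.09 to 0.02) and Wwox at -0.03 (-0.08 to 0.01) had intervals that include 0, and both turned above 0 with TMM factors (trimmed mean of M values), at 0.033 and 0.036, and as a mean of CPM per barcode, at 0.049 and 0.0031. The 183 other genes of at least 300 kb had a median of -0.13, and none was past 1.5-fold.

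Toward shallower barcodes the summed ratio was lower. In the middle class it was -0.34 (-0.38 to -0.29), against a median of -0.12 over all genes. None of the 10 was past 1.5-fold there (4.82% of genes lower, 1.69% higher). Klf12 had -0.57 (-0.69 to -0.45) there, and Rora was again above 0, at 0.30 (0.03 to 0.57). In the low class the summed ratio was -0.56 (-0.64 to -0.47), or 0.68 of the control level, against a median of -0.24 over all genes. All 10 genes were below 0 and 6 were lower by more than 1.5-fold (15.0% of genes lower, 0.984% higher), with Klf12 at -0.97 (-1.25 to -0.70), Trps1 at -0.81, Tenm4 at -0.80, Rora at -0.75, Nav2 at -0.62 and Rad51b at -0.60. Of the other genes of at least 300 kb, 33.9% were lower by that margin, with a median of -0.46. With TMM factors, whose sonKD over control ratio in that class was 0.859, the summed low-class value was -0.34. The middle-class value with TMM factors was -0.28 and the deep-class value -0.10, so the step from middle to low was smaller on that scale. The libraries differed in depth and mt- share as well: the deep class had medians of 7404 UMIs in control and 9963 in sonKD, and 11.2% and 27.9% of barcodes over 10% mt-. The deep-class ratio was -0.19 among barcodes of at least 5000 UMIs, and -0.18 among those with both at most 10% mt- UMIs and at least 1000 genes. The part of depth and mt- share in the middle- and low-class ratios was not tested.

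**Figure D4:**
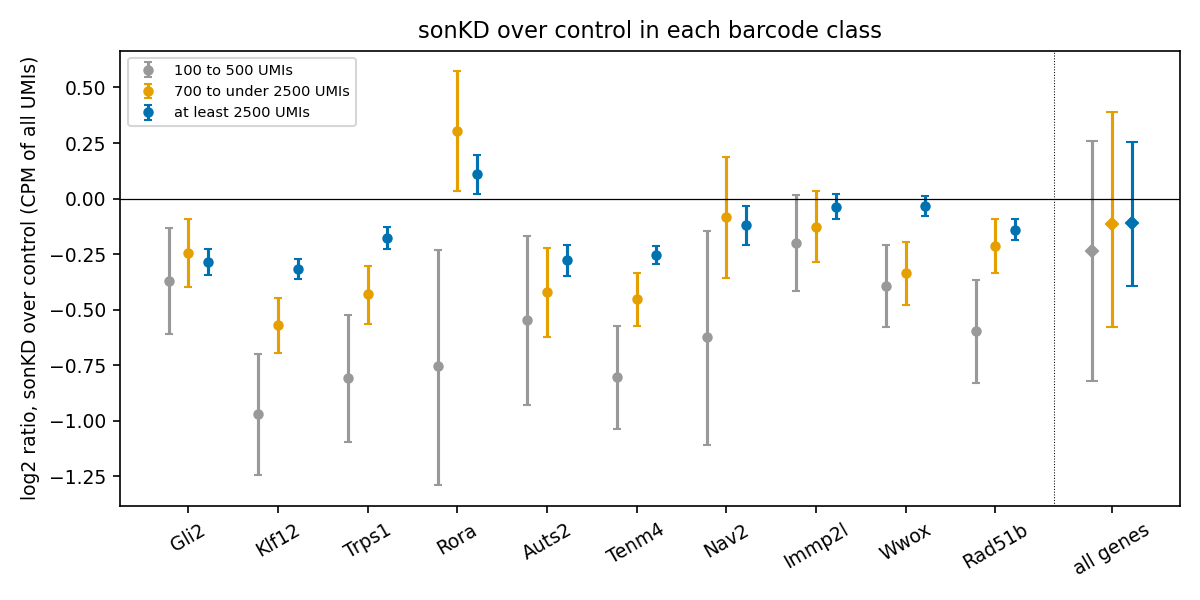
Log2 ratio of sonKD over control, in CPM of all UMIs, for each gene and class (colour), with exact conditional binomial 95% intervals. At the right, diamonds are the median over 8129 genes with bars from the 5th to the 95th percentile. Rora lies above 0 in the middle and deep classes and at -0.75 in the low class.

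Partners and relatives of the 10 genes were measured in the same deep barcodes. In the Hedgehog pathway, the ligand gene Shh had 0 UMIs in the deep class of both libraries, and the receptor gene Ptch1 had 42.3 CPM of all UMIs in control and 35.2 in sonKD (log2 ratio -0.26). The signal transducer Smo had 21.7 and 21.3 CPM and the inhibitor Sufu 17.4 and 15.6. Gli1 and Gli3, the family members of Gli2, had 10.1 and 7.63 CPM in control. Of 14 listed pathway genes, 4 had a mean of at least 10 CPM and 0 were past 1.5-fold between libraries, with a median of -0.09, where 1.28% of all genes were lower and 0.96% higher. Of 22 listed family members of the 10 genes, 13 had that level and 0 were past 1.5-fold, with a median of -0.15. At so low a background, counts of 0 in such short lists say little about them. The pluripotency factors Klf2 and Klf5 had 382 and 339 CPM in control and 345 and 318 in sonKD. Tenm3, a teneurin, had 68.8 and 55.8 CPM (-0.30), and Klf8 had 22.6 and 19.3 (-0.23).

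Of the 18 other very long genes measured, 0 were past 1.5-fold between libraries in the deep class, with a median of -0.19. Gphn, the gene of a synaptic scaffold protein, had 42.0 CPM in control and 33.4 in sonKD (-0.33), and Pde4d had 1734 and 1319 (-0.39). Among the nuclear noncoding RNAs, Neat1, the scaffold RNA of paraspeckles, was higher in sonKD, at 93.9 CPM in control and 247.5 in sonKD, a log2 ratio of 1.40. Malat1 had 3119 and 2883 CPM, a log2 ratio of -0.11.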

How the data were processed

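Transcripts of E14 mouse embryonic stem cells were measured in 1 control and 1 sonKD library, grouped by sample title. The deposited values are raw UMI counts per gene and barcode, which the authors made with Cell Ranger 7.1.0, per the file headers. The build is mm10, per the submitters' processing notes. The annotation, and whether intronic reads or the strand entered the counts, are not given in the sources used here. Gene structure was taken from GENCODE M21 on GRCm38, in which 32235 of the 32285 listed genes were found. No genome sequence was used, so runs of A were searched in annotated transcripts and not, as planned, in introns.

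Counts were summed per library and class and scaled to CPM of all UMIs, or of UMIs without mt- genes and Malat1. Log2 ratios took a count under 3 as 3. Intervals are exact Poisson for levels and exact conditional binomial for ratios, at 95%. Coverage of the ratio intervals was checked on simulated Poisson counts, the setting they assume, so variation between barcodes was not covered. The background is all 8129 genes whose average over both libraries reached 10 CPM in deep barcodes (8115 without mt- genes and Malat1), counted past 1.5-fold. With 1 library per group no test was made. For rank correlations each barcode was thinned to 100, 700 or 2500 UMIs. Scrublet, as in scanpy 1.11.5, called 1 control barcode (0.0178%) and 0 sonKD barcodes of the deep class as doublets, under the 0.5% set for a working call, so all barcodes were kept. Removing the highest scores at 0.8% per 1000 barcodes (251 and 115 barcodes) was an alternative. TMM factors came from edgeR 4.0.16. Other tools were Python 3.11.15, numpy 2.4.6, scipy 1.17.1, pandas 2.3.3 and matplotlib 3.10.9.

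The members and the gene lists were chosen with earlier results of these data known. Named genes are the 10 genes, Malat1, up to 2 genes with the largest absolute ratio between libraries from each other list, and the 5 genes with the highest Pearson's r with the summed 10 over strata of library, class and mt- share. Son was added as the gene the siRNA is labelled against. Other pathway, family and marker genes, with Lrrn3, Gapdh and Actb, are named as members of their lists or as neighbours, and their choice followed their values. Alternatives changed the scaling, class borders, mt- limit, doublets, averaging, thinning and the genes summed.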

Additional observations from a re-analysis of the deposited data

Results flagged for a closer look

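In the middle class (700 to under 2500 UMIs) the 10 genes together differed in opposite directions in the libraries when barcodes were divided at 10% mt- UMIs. The log2 ratio of remaining CPM in barcodes over 10% against at most 10% mt- UMIs was 0.297 in control, with 9 of 10 genes above 0. It was -0.224 in sonKD, with 2 of 10 above 0. The share of all genes above 0 is not given here. Medians over all genes were 0.10 in control and 0.03 in sonKD, and over the 183 other genes of at least 300 kb 0.33 and 0.015. The difference is therefore not particular to the 10 genes. Each group held 1 library, and the difference was not tested. Malat1 had the same sign as the 10 genes together in each library. With a limit of 20% mt- UMIs both libraries had values below 0, and the rank correlation of the genes with mt- UMIs across middle barcodes was -0.10 in control and -0.18 in sonKD. At a limit of 5% the values were 0.73 and -0.027, the latter near 0 and without an interval.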

How the results depend on the processing

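No paired analysis was possible because each group held 1 library and no test was made. For 38 results, 238 alternative values were computed. Among those of a main comparison, 24 moved by less than the counting interval of the reported value, 59 moved by more and 1 turned its sign. Among the others, 107 moved by less, 37 moved by more and 10 turned their sign. Among the values that moved by less, 3 near 0 also changed sign: Wwox between libraries as a mean per barcode (0.0031) and, in low control barcodes without thinning, the rank correlations with Malat1 (-0.0018) and with mt- UMIs (0.0036). The causes were not tested. Restricting to 2500 to under 5000 UMIs was chosen after seeing the data.

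For sonKD over control, summed over the 10 genes in deep barcodes, the log2 ratio was -0.16 on remaining CPM, -0.10 without mt- and ribosomal protein genes, -0.10 with TMM factors, -0.19 from 5000 UMIs and -0.12 as a mean of CPM per barcode. Leaving out 1 of the 10 genes gave -0.20 to -0.15. Without mt- and ribosomal protein genes Immp2l had 0.042 and Wwox 0.045, with TMM factors 0.033 and 0.036, and as a mean per barcode 0.049 and 0.0031. The other 8 genes kept their sign under all alternatives run.

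For middle over deep barcodes, control gave 0.093 in CPM of all UMIs, 0.35 against barcodes from 5000 UMIs, 0.37 for 1000 to under 2500 UMIs, 0.10 at most 10% mt- UMIs and 0.26 to 0.34 with 1 gene left out. SonKD gave -0.070, against the reported 0.18, in CPM of all UMIs, then 0.25 from 5000 UMIs, 0.44 at most 10% mt- UMIs and up to 0.23 with 1 gene left out. For low over deep barcodes, control gave -3.07 for 100 to 200 UMIs, -3.24 at most 10% mt- UMIs and -3.39 to -3.23 with 1 gene left out. SonKD gave -3.62 in CPM of all UMIs, -3.62 from 5000 UMIs, -3.35 for 100 to 200 UMIs, -3.63 at most 10% mt- UMIs and -3.80 to -3.61 with 1 gene left out.

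For the highest over the lowest Malat1 range in deep barcodes, control and sonKD gave 1.58 and 1.35 in CPM of all UMIs, 1.53 and 1.22 at most 10% mt- UMIs, 1.04 and 0.84 when divided at the median, 1.52 and 1.25 by thinned Malat1 UMIs, 1.49 and 1.22 from 5000 UMIs, 2.53 and 1.65 for 2500 to under 5000 UMIs, and 1.78 and 1.63 as a mean per barcode. Leaving out 1 gene gave up to 1.68 in control. For over against at most 10% mt- UMIs, control and sonKD gave 0.78 and 0.44 in CPM of all UMIs, 0.52 and 0.40 with a limit of 5%, 1.25 and 0.43 for 2500 to under 5000 UMIs, and 1.06 and 0.75 as a mean per barcode. SonKD also gave 0.80 with a limit of 20% and 0.51 from 5000 UMIs. In the middle class of control the limit of 20% turned the value to -0.30.

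The rank correlation with Malat1 in deep barcodes was 0.60 and 0.52 from unthinned shares and 0.42 and 0.33 at most 10% mt- UMIs. The rank correlation with mt- UMIs, reported as 0.24 and 0.17, was 0.28 and 0.20 unthinned and 0.13 and 0.036 at most 10% mt- UMIs. In the middle class the rank correlation with mt- UMIs turned from -0.10 and -0.18 to 0.21 in control and 0.13 in sonKD at most 10% mt- UMIs, and in control to 0.010 as Pearson's r of log2 of count + 1. The rank correlation with Malat1 in the low control class turned to -0.0059 with another random seed. Without a filter on low genes, 23501 genes had 5.06% lower and 7.61% higher past 1.5-fold. Depth limits the low class most, where each gene had 50 to 558 UMIs per library.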

Other observations

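Barcodes with more than 500 and under 700 UMIs belonged to none of the classes. The control library had 742 of them with 148 UMIs of the 10 genes, or 334 CPM of all UMIs (282 to 392). The sonKD library had 679 with 101 UMIs, or 250 CPM (204 to 304). Both values lay between those of the low and middle classes. Malat1 was at 2125 and 1427 CPM in these barcodes, and mt- UMIs made up 6.08% and 4.10%.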
